A study of Mus musculus with 9 samples.

Results

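The Frizzled receptors are the membrane proteins to which Wnt ligands bind, and the mouse genome holds 10 of them, Fzd1 to Fzd10. All 10 genes were taken by symbol, with no member left out for its values, from the 49585 genes listed for each library. All 10 were among the 15873 genes with enough reads to test. The family itself was chosen with earlier results of these data known. The 9 RNA-seq libraries come from basal cells of the C57BL/6J mouse prostate, isolated by flow cytometry and kept for 5 days as organoids in 1 of 3 media, with 3 libraries per medium. BM is the basal organoid medium with EGF at 50 ng/ml, Noggin (a BMP antagonist) at 100 ng/ml, A83-01 (which blocks type I receptors of TGF-β) at 200 nM and Y-27632 (a ROCK inhibitor) at 10 µM. R adds 500 ng/ml R-spondin1 to BM. RD7 adds to R the androgen dihydrotestosterone (DHT) at 100 nM. EGF, Noggin, A83-01 and Y-27632 were thus present in all 9 libraries, and no group received DHT without R-spondin1. The age of the animals is not given in the sources used here, nor is the separate origin of replicate libraries (other animals, sorts or cultures), so p-values measure only the spread between these samples.

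A Frizzled is a receptor that crosses the membrane several times, with an outer cysteine-rich domain that holds the lipid of a Wnt ligand and inner parts that recruit Dishevelled. With the co-receptors Lrp5 and Lrp6 it leads to stable β-catenin and to transcription through TCF/LEF factors, while other Frizzled complexes act in planar cell polarity, the alignment of cells within a sheet. The ubiquitin ligases Rnf43 and Znrf3 remove Frizzleds from the cell surface, and R-spondins, by binding Lgr4, Lgr5 or Lgr6, remove those ligases in turn. RNA levels do not measure that step, which acts on the receptor protein. Wnt signaling is known to act in prostate development and in epithelial progenitor cells.

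Levels are in FPKM, a read count per length of gene and per size of library, given for replicates 1, 2 and 3 of a group in that order, or as mean ± SD with n = 3. A log2 fold change (± SE) is on the log2(FPKM + 0.5) scale, which understates the change of genes near or below 0.5 FPKM, and a plain fold is the ratio of mean FPKM. A gene was called when limma's p, adjusted by Benjamini-Hochberg over all genes tested, was under 0.05. BM 1 was the shallowest library, with 6505859 reads in genes, BM 2 held 24141017, and the other 7 held 15961444 to 23256008. Axin2, a standard target of Wnt/β-catenin signaling, stood at 0.315 to 0.391 FPKM in the BM libraries, 3.36 to 5.59 in R and 3.49 to 4.64 in RD7. Fkbp5, a standard androgen-response gene, stood at 97.4 to 128 FPKM in RD7 and at 3.59 to 7.22 in the other 6 libraries, so both labels held. Each of the 8 basal and 8 luminal marker genes reached 0.5 FPKM in at least 1 library. The basal markers summed to 7883 to 8731 FPKM in BM, 10458 to 11138 in R and 8719 to 9854 in RD7, and the luminal markers to 3443 to 4439, 2711 to 3208 and 3784 to 4784. All 5 endothelial and all 5 neuroendocrine markers were under 0.5 FPKM in every library.

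All 10 Frizzled genes were detected, and Fzd6, Fzd7 and Fzd1 made up most of the transcripts. Their summed share of the Frizzled FPKM was 80.0% ± 2.39 in BM, 77.3% ± 1.06 in R and 79.1% ± 2.26 in RD7. Fzd6, a Frizzled best known for planar cell polarity in skin and hair, had the highest mean as deposited in every medium. In BM, Fzd6, Fzd7 and Fzd1 were followed by Fzd2, Fzd8, Fzd4, Fzd3, Fzd5, Fzd10 and Fzd9. In this order the ranges of Fzd6 and Fzd7, of Fzd7 and Fzd1, of Fzd2 and Fzd8, of Fzd4 and Fzd3 and of Fzd5 and Fzd10 overlapped, while other neighbours were apart. In R the same genes led, but Fzd10 stood between Fzd8 and Fzd4, with no overlap with either. In RD7 the order was Fzd6, Fzd1, Fzd7, Fzd2, Fzd8, Fzd9, Fzd4, Fzd3, Fzd10 and Fzd5, and Fzd7 lay below Fzd1 without overlap. The order depends on the gene model for Fzd3, Fzd6 and Fzd8, whose deposited values fitted lengths of 4227, 4134 and 3346 bases where the GENCODE M21 exons come to 12804, 4818 and 5974. With the GENCODE lengths, tried after the data had been seen, Fzd6 in R averaged 28.7 ± 3.13 FPKM and stood below Fzd7 at 30.2 ± 4.45, while it still had the highest mean in BM and RD7. Fzd10 in R then stood above Fzd8 (4.31 ± 1.22 against 3.87 ± 0.288 FPKM, with overlap), and Fzd3 stood in the last or the last but 1 place in each medium. The summed share of Fzd6, Fzd7 and Fzd1 was then 82.3%, 79.5% and 81.1% in BM, R and RD7. The ratio of a gene's FPKM between media does not depend on the length used, while a difference of log2(FPKM + 0.5) does. With GENCODE lengths Fzd3 averaged 0.757, 0.522 and 0.370 FPKM in BM, R and RD7. The log2 fold changes of Fzd3, Fzd6 and Fzd8 were not fitted again with those lengths.

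**Figure D1:**
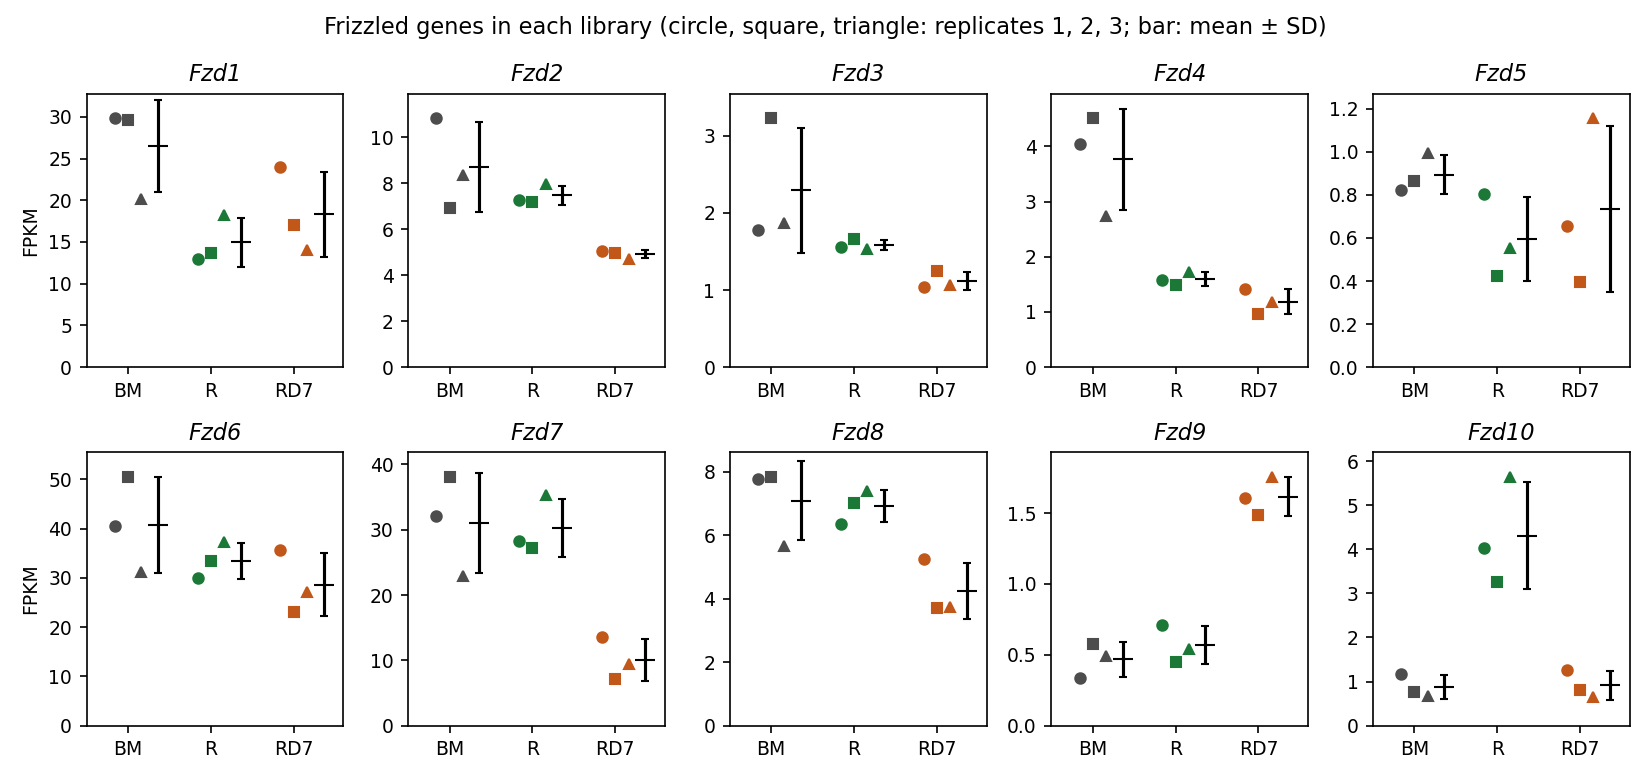
FPKM of each Frizzled gene (vertical axis, a separate scale per gene, from 0) in the 9 libraries, by medium (horizontal axis). Circles, squares and triangles are replicates 1, 2 and 3 and the black bar is the mean ± SD. Fzd10 is high in the 3 R libraries, at 3.25 to 5.64, Fzd9 in the 3 RD7 libraries, at 1.48 to 1.76, and Fzd7 is low in the 3 RD7 libraries, at 7.14 to 13.6.

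R-spondin1 alone was accompanied by opposite changes of 2 members of low abundance, Fzd10 and Fzd4. Fzd10 rose 4.93-fold, from 0.874 ± 0.271 FPKM in BM to 4.31 ± 1.22 in R, and Fzd4 fell from 3.76 ± 0.917 to 1.60 ± 0.121 FPKM. The other 8 members were not called, among them the abundant Fzd6, Fzd7 and Fzd1. Of all genes tested, 10.0% were called in this comparison, 4.38% higher and 5.64% lower, so 2 called of 10 is near the background. The median log2 fold change was -0.22 over the 10 Frizzleds and 0.02 over all genes tested.

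Fzd10 (chr5:128600844-128604093, plus strand, 1 exon, GRCm38), a receptor known as an antibody target in synovial sarcoma, stood at 1.18, 0.765 and 0.675 FPKM in BM. In R it stood at 4.03, 3.25 and 5.64 FPKM. All 3 R libraries lay above all 3 BM libraries. In bulk RNA, a change in the number of cells of a type and in RNA per cell cannot be told apart. The log2 fold change was 1.79 ± 0.24, with a limma adjusted p of 7.9e-04. The counts behind these values were 25, 60 and 43 reads in BM and 209, 246 and 397 in R. Its neighbour on the opposite strand, the noncoding RNA gene 5930412G12Rik (chr5:128579106-128600693), begins 150 bases from the start of Fzd10 and was called in the same direction. It had 1, 3 and 0 reads in BM and 26, 31 and 35 in R, with a log2 fold change of 0.85 ± 0.09 and an adjusted p of 2.4e-04. This neighbour was chosen after its values had been seen. It reached the level needed for testing in the R libraries only, so the filter favoured a higher value in R. The exons of 5930412G12Rik share no base with those of Fzd10.

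Fzd4 (chr7:89404355-89413134, plus strand, 2 exons, GRCm38) is the receptor of Norrin as well as of Wnts, and acts in retinal vessels. It stood at 4.05, 4.51 and 2.74 FPKM in BM and at 1.58, 1.48 and 1.72 in R. Every R library lay below every BM library. The log2 fold change was -1.0 ± 0.19, with a limma adjusted p of 0.0071. A second gene, Tmem135, starts 132 bases away on the other strand (chr7:89139714-89404222), and it stood at 10.5, 13.1 and 9.38 FPKM in BM and 7.55, 9.15 and 8.73 in R. The log2 fold change of Tmem135 was -0.35 ± 0.17 and was not called (adjusted p 0.23), although each of its R values lay below each BM value. Whether the response of Fzd4 differs from that of Tmem135 was not tested. The bases between both annotated starts, read from the GRCm38.p6 genome (chr7:89404223-89404354, plus strand), are shown because both genes start so close together. Capitals mark GC boxes (GGGCGG, or CCGCCC on the other strand) and CCAAT boxes (CCAAT, or ATTGG on the other strand), motifs found in many promoters.
Fzd4 and Tmem135: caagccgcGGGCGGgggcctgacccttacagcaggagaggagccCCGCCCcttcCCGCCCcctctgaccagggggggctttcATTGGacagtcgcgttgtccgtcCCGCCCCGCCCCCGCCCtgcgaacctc
The 132 bases hold 6 GC boxes and 1 CCAAT box.

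Of the members not called, Fzd1 came closest. Fzd1, a receptor near in sequence to Fzd2 and Fzd7, stood at 29.8, 29.6 and 20.1 FPKM in BM and at 12.9, 13.6 and 18.3 in R. The groups did not overlap, although BM 3 and R 3 stood close to each other. The log2 fold change was -0.80 ± 0.23 with a limma adjusted p of 0.053. Fzd1 passed the threshold in 6 of 20 alternative analyses, with an adjusted p that ran from 0.013 without BM 3 to 0.2 without R 1. Fzd3 and Fzd5 also lay lower in each R library than in each BM library, at 1.58 ± 0.068 against 2.29 ± 0.808 FPKM and 0.594 ± 0.195 against 0.894 ± 0.0907, and neither was called (adjusted p 0.24 and 0.32). With Fzd4, this made 4 of 10 members without overlap toward lower values, where 14.4% of all genes tested were so placed. One member, Fzd10, was without overlap toward higher values, where the share over all genes was 15.9%.

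Fzd7 and Fzd8 had nearly equal means in BM and R. Fzd7 averaged 31.1 ± 7.62 FPKM in BM and 30.2 ± 4.45 in R, and its log2 difference was -0.02 ± 0.24 (limma adjusted p 0.97). Fzd8 averaged 7.09 ± 1.24 and 6.92 ± 0.514 FPKM, with -0.02 ± 0.18 (adjusted p 0.95). Fzd6 averaged 40.7 ± 9.67 and 33.5 ± 3.65, Fzd2 8.71 ± 1.97 and 7.48 ± 0.422, and Fzd9 0.468 ± 0.123 and 0.568 ± 0.132. These 3 were not called either, with adjusted p values of 0.45, 0.49 and 0.57.

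Adding DHT to R-spondin1 was followed by lower levels of 4 Frizzleds and a higher level of 1. Fzd7, among the 3 most abundant members in R, fell to 10.1 ± 3.26 FPKM, 3.01-fold below R. Fzd10 returned to 0.911 ± 0.322 FPKM, 4.73-fold below R, Fzd2 fell from 7.48 ± 0.422 to 4.91 ± 0.178 and Fzd8 from 6.92 ± 0.514 to 4.23 ± 0.875. Fzd9 rose 2.84-fold to 1.62 ± 0.136 FPKM. Of all genes tested, 31.1% were called in this comparison, 13.4% higher and 17.7% lower. On so few members, 5 called of 10 is not far from that background, and what follows concerns single genes.

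Fzd7 (chr1:59482424-59486955, plus strand, 1 exon, GRCm38) is a receptor known for its role in intestinal stem cells. It stood at 28.3, 27.1 and 35.3 FPKM in R and at 13.6, 7.14 and 9.47 in RD7. Each RD7 library lay below each R library, and also below the BM libraries at 32.1, 38.1 and 23.0. The log2 fold change from R to RD7 was -1.58 ± 0.24, with a limma adjusted p of 9.1e-04. The 250 bases before its RefSeq start (GRCm38.p6, chr1:59481897-59482146, plus strand) are shown because Fzd7 was the abundant member with the largest change. They end at 59482146, while the gene starts at 59482424 in GENCODE M21, so the RefSeq and GENCODE starts differ. Capitals mark GC and CCAAT boxes on either strand, and ACAAAG, the reverse complement of CTTTGT, a core motif of TCF/LEF factors.
Fzd7: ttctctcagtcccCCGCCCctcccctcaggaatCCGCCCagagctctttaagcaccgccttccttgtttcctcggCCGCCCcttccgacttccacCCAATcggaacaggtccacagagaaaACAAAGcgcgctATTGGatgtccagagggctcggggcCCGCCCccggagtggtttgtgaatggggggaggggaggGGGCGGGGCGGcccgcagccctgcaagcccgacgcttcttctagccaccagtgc
The window holds 6 GC boxes, of which a pair overlaps, 2 CCAAT boxes and 1 CTTTGT.

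Neither window holds the other TCF/LEF core, CTTTGA, or AGAACA, a core of the androgen receptor motif, on either strand. RefSeq promoter windows of 300 bases (250 before to 50 after the start, GRCm38.p6) were at hand for 6 of the 10 members, Fzd1, Fzd4, Fzd5, Fzd7, Fzd9 and Fzd10. By the GENCODE M21 annotation, the whole Fzd10 window and 233 bases of the Fzd9 window lie inside the gene, while the Fzd1 and Fzd7 windows hold no base of it. CTTTGA matched in 1 of these 6, Fzd1, and in 16% of all 32851 promoter windows. CTTTGT matched in 2, Fzd1 and Fzd7, and in 18.7% of all windows. AGAACA matched in 1 of 6, Fzd4, where it lies after the start, and in 19.0% of all windows. A GC box was found in 5 of 6, all but Fzd1, against 35.7% of all windows. CCAAT was found in 3 of 6 (Fzd4, Fzd5 and Fzd7), against 37.4%. CTTTGT, GC boxes and CCAAT were chosen after the sequences had been read, and GC boxes can overlap one another. A match is a string of letters, not a measured site.

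Fzd10 stood at 1.27, 0.805 and 0.656 FPKM in RD7, where all 3 libraries lay below all 3 R libraries and within or just outside the range of BM. From R to RD7 the log2 fold change was -1.76 ± 0.24, with a limma adjusted p of 3.4e-04. Its noncoding neighbour 5930412G12Rik, tested only through its R libraries, had 5, 1 and 2 reads in RD7. The log2 fold change of that neighbour from R was -0.80 ± 0.09 (adjusted p 1.3e-04), a direction that the filter favoured. Between RD7 and BM, Fzd10 differed by 0.03 ± 0.24 and was not called (adjusted p 0.92). Axin2, in contrast to Fzd10, stood as high in RD7 as in R, with a log2 difference of -0.08 ± 0.19 (adjusted p 0.79). Whether the response of Fzd10 differs from that of Axin2 was not tested.

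Fzd9 (chr5:135248938-135251230, minus strand, 1 exon, GRCm38), a receptor studied in bone and neural precursors, stood at 0.710, 0.450 and 0.544 FPKM in R and at 1.61, 1.48 and 1.76 in RD7. All RD7 libraries lay above all others. The log2 fold change was 0.99 ± 0.15, with a limma adjusted p of 7.7e-04. This low-abundance gene rested on 26, 24 and 27 reads in R and on 66, 65 and 68 in RD7, and BM 1 held only 5.

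Fzd2 (chr11:102604396-102608058, plus strand, 1 exon, GRCm38), a receptor of Wnt5a among others, stood at 7.27, 7.21 and 7.97 FPKM in R and at 5.07, 4.96 and 4.72 in RD7. The groups did not overlap, and the log2 fold change was -0.56 ± 0.16 (limma adjusted p 0.027). This call was lost in 8 of 20 alternatives, among them both other scalings of the libraries, with adjusted p values up to 0.095. Fzd8, a close relative of Fzd5, stood at 6.37, 7.00 and 7.38 FPKM in R and at 5.24, 3.71 and 3.75 in RD7. Its log2 fold change of -0.66 ± 0.18 (adjusted p 0.019) was lost in 4 of 20 alternatives, each without 1 library of R or RD7, with adjusted p values up to 0.071. The calls of Fzd7, Fzd9 and Fzd10 from R to RD7, and those of Fzd4 and Fzd10 from BM to R, were kept in all 20 alternatives.

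The other 5 members were not called between R and RD7. Fzd6 averaged 33.5 ± 3.65 FPKM in R and 28.6 ± 6.39 in RD7, and Fzd1 15.0 ± 2.90 and 18.3 ± 5.07, with adjusted p values of 0.4 for both. Fzd5, a receptor with a role in gut and eye, averaged 0.594 ± 0.195 and 0.735 ± 0.387. Fzd3 and Fzd4 lay lower in every RD7 library than in every R library, with log2 differences of -0.36 ± 0.19 and -0.32 ± 0.19, which did not pass the test (adjusted p 0.18 and 0.22). In all, 6 of 10 members were without overlap toward lower values in RD7, against 30.1% of all genes tested, and 1 toward higher values, against 21.7%. The median log2 difference was -0.34 over the Frizzleds and -0.09 over all genes.

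Markers of cell type differed between the same groups. With R-spondin1, Krt15 and Snai2 rose among 8 basal markers, and Krt8, Prom1 and Cd38 fell among 8 luminal markers, where 4.38% of all genes were called higher and 5.64% lower. In the same step, beside the fall of Fzd4, 3 mesenchymal markers fell, Vim from 1.37 ± 0.139 to 0.236 ± 0.0554 FPKM, Acta2 from 12.4 ± 3.43 to 3.69 ± 0.984 and Tagln from 2.44 ± 0.224 to 1.06 ± 0.368, while Dcn rose from 4.79 ± 1.27 to 21.9 ± 2.71. Of 8 basal markers, 5 fell from R to RD7 (Krt5, Trp63, Krt17, Itga6 and Snai2) and none rose, where 17.7% of all genes were called lower and 13.4% higher. Among the luminal markers, Krt19, Prom1 and Hoxb13 rose and Krt18 and Cd24a fell. The 10 mesenchymal markers summed to 24.6 to 30.6 FPKM in R and 67.3 to 95.0 in RD7, most of it from Dcn, against 18.6 to 26.9 in BM. Dcn rose from R to RD7, Vim, Acta2, Col1a1, Col3a1 and Pdgfrb fell, and 6 of the 10 (Col1a1, Col1a2, Col3a1, Pdgfra, Pdgfrb and Lum) were under 0.5 FPKM in every library. The immune markers summed to 0.856 to 1.61 FPKM in BM, 2.87 to 3.78 in R and 2.13 to 4.09 in RD7, with Ptprc, Adgre1 and Cd3e under 0.5 FPKM in every library. The 2 immune markers tested, Cd68 and Lyz2, were both called higher from BM to R (limma adjusted p 0.03 and 0.0058). Cd68 rose from 1.21 ± 0.364 to 2.64 ± 0.434 FPKM, and Lyz2 from 0 reads in BM to 0.648 FPKM. Neither was called from R to RD7. The part of cell make-up in the Frizzled values was not tested.

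**Figure D2:**
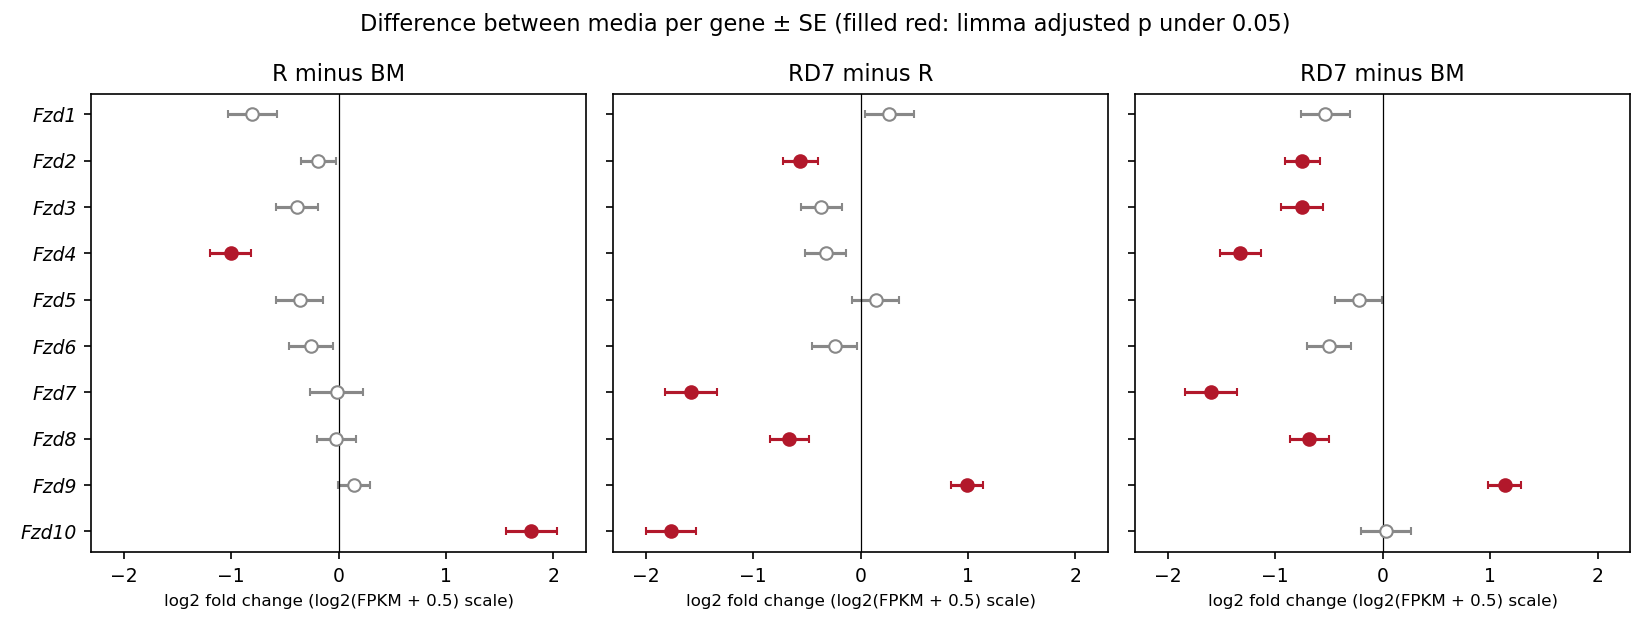
Log2 fold change ± SE of each Frizzled gene (horizontal axis, log2(FPKM + 0.5) scale) in the 3 comparisons. Filled red points passed limma's adjusted p of 0.05 and open grey points did not. From R to RD7, Fzd7 lies at -1.58 and Fzd10 at -1.76, while Fzd9 lies at 0.99. From BM to R, Fzd10 lies at 1.79 and Fzd4 at -1.0.

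Against the basal medium, R-spondin1 and DHT together went with 5 lower Frizzleds (Fzd2, Fzd3, Fzd4, Fzd7 and Fzd8) and 1 higher, Fzd9. This comparison is the sum of the other 2 and shares their libraries, so it holds no separate evidence. Of all genes tested, 47.0% were called in it, 21.6% higher and 25.4% lower, and 6 called of 10 is near that background. The median log2 difference was -0.61 over the 10 Frizzleds and -0.07 over all genes tested. The 5 lower members were the ones without overlap in that direction, a placing that 29.3% of all genes had, and Fzd9 was the 1 without overlap toward higher values, as were 23.1% of all genes.

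Fzd4 stood at 1.42, 0.958 and 1.18 FPKM in RD7, below all BM libraries, with a log2 fold change of -1.32 ± 0.19 (limma adjusted p 5.2e-04) and a mean 3.17-fold below BM. Fzd3, a polarity receptor that guides axons, stood at 1.78, 3.22 and 1.87 FPKM in BM, 1.56, 1.66 and 1.53 in R and 1.04, 1.25 and 1.06 in RD7. Its values were lower in R than in BM and lower again in RD7, and only the whole span was called, at -0.75 ± 0.19 (adjusted p 0.012). Fzd7 lay 3.09-fold below BM, at -1.59 ± 0.24 (adjusted p 8.0e-04). Fzd2 and Fzd8 lay 1.77-fold and 1.67-fold below BM, at -0.75 ± 0.16 and -0.68 ± 0.18 (adjusted p 0.0056 and 0.013). Fzd9 lay 3.46-fold above BM, at 1.13 ± 0.15 (adjusted p 3.0e-04). These 6 calls were kept in all 20 alternatives. Fzd1 and Fzd6 were not called, at -0.53 ± 0.23 and -0.50 ± 0.21 (adjusted p 0.077 and 0.069), and both passed the threshold without BM 3 (0.019 and 0.014) or without RD7 1 (0.023 and 0.027). In other alternatives their adjusted p rose to 0.25 and 0.23. Fzd5 differed by -0.22 ± 0.22 (adjusted p 0.42).

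The summed FPKM of the 10 Frizzleds was 129, 143 and 95.1 in BM, 93.4, 95.6 and 116 in R and 89.4, 60.7 and 64.9 in RD7. Every RD7 library lay below every BM and R library as deposited, although RD7 1 and R 1 were close, while BM and R overlapped. With median-of-ratios scaling of the libraries, RD7 1 and R 1 both came to 90.9 and BM 3 to 92.2, so RD7 1 was then level with R 1. The group means as deposited were 122 ± 24.7, 102 ± 12.5 and 71.7 ± 15.5 FPKM. The shares of the largest members varied little within a group. Fzd7 held 25.2% ± 1.29 of the sum in BM, 29.7% ± 1.14 in R and 13.8% ± 1.83 in RD7. Fzd1 held 21.7% ± 1.24, 14.6% ± 0.987 and 25.5% ± 3.36, so that its share was lowest where that of Fzd7 was highest. Shares of a sum are tied, so a lower Fzd7 raises the shares of other members without a rise in their FPKM. Fzd6 held 33.1% ± 2.02, 33.0% ± 1.66 and 39.8% ± 1.92.

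The ratio of Fzd7 to Fzd1, a pair chosen after the values had been seen, is formed within each library and so independent of its scaling. It was 1.08, 1.28 and 1.14 in BM, 2.18, 1.99 and 1.93 in R and 0.567, 0.420 and 0.673 in RD7. The 3 media did not overlap, although Fzd1 itself was not called from BM to R (limma adjusted p 0.053). Fzd7 to Fzd6, chosen in the same way, was 0.793, 0.755 and 0.737 in BM, 0.946, 0.814 and 0.951 in R and 0.382, 0.310 and 0.349 in RD7. These did not overlap either, but BM 1 and R 2 were close. How many other pairs of members would show no overlap was not counted. With 3 libraries against 3, an exact permutation test cannot go below 0.1 for either ratio, and none was run. Fzd10 held 0.720% of the sum in BM, 4.19% in R and 1.25% in RD7, and Fzd9 held 0.393%, 0.566% and 2.32%.

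**Figure D3:**
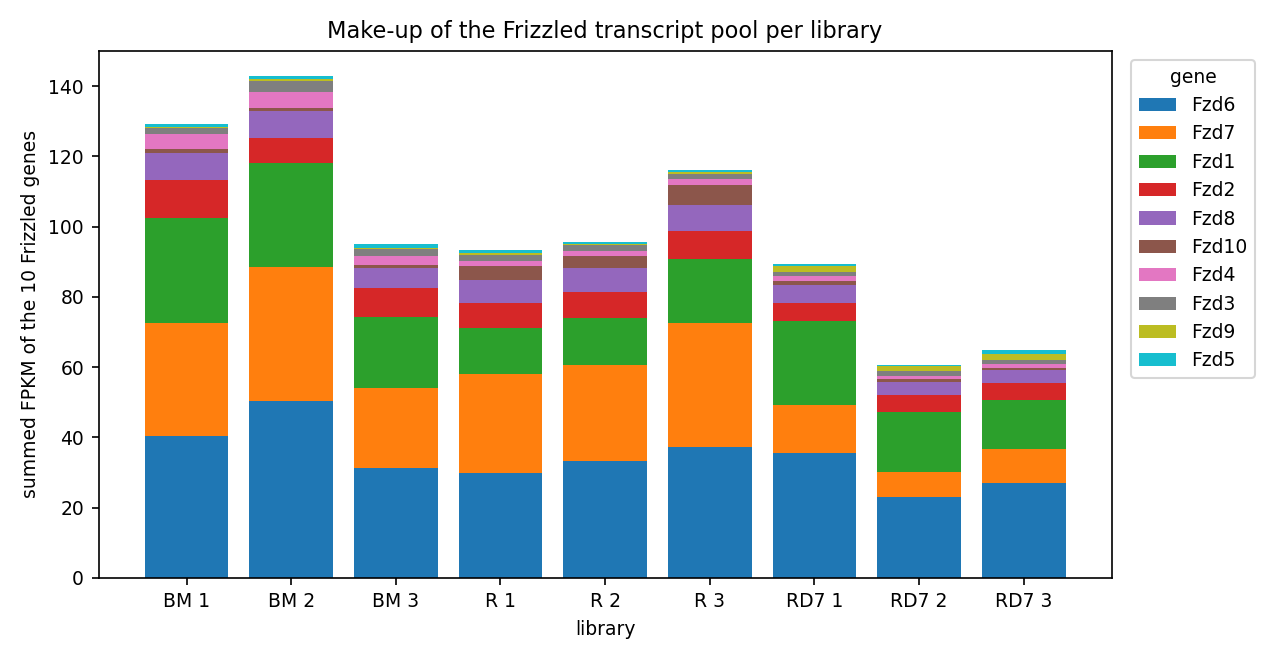
Summed FPKM of the 10 Frizzled genes (vertical axis, from 0) in each of the 9 libraries (horizontal axis), with 1 colour per gene. Totals run from 95.1 to 143 in BM, 93.4 to 116 in R and 60.7 to 89.4 in RD7, and the Fzd7 segment is short in the 3 RD7 libraries.

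Among the genes that act with the Frizzleds or share their cysteine-rich domain, members of each list below were called lower from R to RD7. In that step 17.7% of all genes tested were called lower and 13.4% higher, with a median log2 difference of -0.09, and from BM to R 5.64% and 4.38%, with a median of 0.02. The lists are small, and nothing particular to a list is read from its counts. The 11 tested genes of the planar cell polarity core had no called decrease from BM to R, and 6 fell from R to RD7, with a list median of -0.71 against -0.09 over all genes. Vangl1 and Vangl2, the membrane proteins that stand opposite Frizzled in polarised cells, fell from 42.4 ± 1.9 to 21.3 ± 1.84 FPKM (limma adjusted p 2.7e-04) and from 8.05 ± 0.566 to 4.11 ± 0.953 (0.0029). Ankrd6 (Diversin) fell from 2.85 ± 0.549 to 1.05 ± 0.259 FPKM (0.0016), and Prickle2 from 0.468 to 0.0329 (0.0014). Celsr1 and Prickle1 fell as well, with calls lost in 3 and 5 of 20 alternatives (adjusted p up to 0.079 and 0.087). In the step from BM to R, Prickle3 alone was called, higher, and its call was lost in 9 (up to 0.15).

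Among 13 co-receptors and other Wnt receptors, Ryk rose and then fell. Ryk, a Wnt receptor of the kinase-like class, stood at 34.6, 35.2 and 34.8 FPKM in BM, 47.7, 50.5 and 50.2 in R and 30.8, 29.0 and 31.0 in RD7. The R libraries were the highest 3 of the 9. The rise of 0.50 ± 0.11 (limma adjusted p 0.014) lost its call in 4 alternatives, 3 of them without an R library (adjusted p up to 0.078), and the fall of -0.70 ± 0.11 (8.1e-04) kept its call in all 20 alternatives. Ror1 was called lower from BM to R, a call lost in 4 of 20 alternatives (up to 0.081). In all, 5 of the 13 fell from R to RD7 and none rose (Ror1, Ror2, Ryk, Reck and Gpc4), where 17.7% of all genes were called lower, and the list median was -0.34 against -0.09. The calls of Ror1, Ror2, Reck and Gpc4 were lost in 7, 6, 8 and 2 alternatives (up to 0.098, 0.11, 0.15 and 0.057). Lrp5 and Lrp6, the β-catenin co-receptors, were not called between R and RD7.

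The genes that control Frizzled turnover at the membrane gave 6 tested of 9. Lgr5, an R-spondin receptor and Wnt target, rose from 0.00934 FPKM (4 reads in all BM libraries) to 0.894 ± 0.157 in R (limma adjusted p 1.3e-05) and fell to 0.0132 in RD7 (4.5e-06). Lgr5 reached the level needed for testing in the R libraries only, so the filter favoured both changes and the list counts that hold them. Rnf43, the ligase that clears Frizzleds, rose from 2.59 ± 0.811 to 6.59 ± 1.37 FPKM in R (0.029) and fell to 3.31 ± 1.51 in RD7 (0.036), and each call was lost in 6 of 20 alternatives (up to 0.096 and 0.13). Lgr6 fell from R to RD7 (0.0025). From BM to R the list held 2 higher and 0 lower, and from R to RD7 0 higher and 3 lower, with medians of 0.39 and -0.41 against 0.02 and -0.09 over all genes. The shares of all genes called higher and lower were 4.38% and 5.64% in the first step and 13.4% and 17.7% in the other.

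Of 20 ligand genes, 12 were tested. Wnt5a, the main ligand of the β-catenin-independent branch, stood at 4.98, 5.76 and 5.53 FPKM in R and 0.507, 0.328 and 0.341 in RD7, a log2 fold change of -2.73 ± 0.15 (limma adjusted p 4.4e-07). Ndp, which encodes the Fzd4 ligand Norrin, had 76 reads over the R libraries and 1 over the RD7 libraries, and averaged 0.631 ± 0.185 FPKM in R (adjusted p 2.9e-04). Wnt3a rose from 0.0794 ± 0.0383 to 1.2 ± 0.113 FPKM in R (3.1e-04) and fell to 0.148 ± 0.189 in RD7 (2.1e-04). Wnt3a reached the level needed for testing only in the R libraries and RD7 1, so the filter favoured both changes. Wnt7a fell in both steps, from 3.16 ± 0.508 to 1.26 ± 0.0644 and to 0.502 ± 0.136 FPKM (0.0021 and 0.0041). From R to RD7, 6 of the 12 fell, among them Wnt5b and Wnt10b, and Wnt9a alone was called higher, where 17.7% of all genes were called lower and 13.4% higher, and the list median was -0.48 against -0.09. The call of Wnt9a was lost in 6 alternatives (up to 0.067) and that of Wnt10b in 1 (0.052). Each ligand that fell averaged 5.42 FPKM or less in R. The most abundant ligands, Wnt10a, Wnt4 and Wnt7b, were not called from R to RD7. Wnt10a averaged 53.5 ± 2.21 FPKM in R and 44.2 ± 4.07 in RD7 (adjusted p 0.22). Wnt4 averaged 32.7 ± 3.29 and 45.5 ± 6.61 (0.068), and Wnt7b 22.3 ± 1.53 and 30.5 ± 6.80 (0.099). From BM to R, 1 rose and 2 fell, the latter Wnt7a and Wnt7b, and the call of Wnt7b was lost in 7 of 20 alternatives (up to 0.13).

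Of 10 other proteins with a Frizzled-type cysteine-rich domain, 3 were tested, and all 3 fell from R to RD7, where 17.7% of all genes were called lower. Sfrp2 reached the level needed for testing in the R libraries only. The filter thus favoured both a rise from BM to R and its fall from R to RD7, and the count of falls is not comparable with that share. Sfrp1, a secreted Wnt antagonist, fell from 1.2 ± 0.0801 to 0.155 ± 0.0742 FPKM (limma adjusted p 6.2e-05). Smo, the Hedgehog signal transducer, fell from 34.1 ± 6.37 to 20.2 ± 3.97 (0.021), a call lost in 3 of 20 alternatives (up to 0.084). Sfrp2 rested on few reads, with 12 over the BM libraries, 68 over R and 3 over RD7. It was called higher from BM to R (log2 fold change 0.73 ± 0.13, adjusted p 0.0044) and lower from R to RD7 (4.0e-04). Between BM and RD7 Sfrp2 was not called (0.22). Smo and Sfrp1 were not called from BM to R. Of 9 Dishevelled and Frizzled-proximal kinase genes, none was called from BM to R, and Csnk1g3 alone fell from R to RD7 (0.03), a call lost in 7 of 20 alternatives (up to 0.11). The 3 Dishevelled genes, which carry the signal from the receptor, were not called from R to RD7. Between BM and RD7, where 25.4% of all genes were called lower and 21.6% higher, the calls were 7 lower and 1 higher of 11 polarity genes, 7 lower of 13 co-receptors, 5 lower and 1 higher of 12 ligands, 4 lower of 9 Dishevelled and kinase genes, 2 lower of 3 cysteine-rich-domain proteins and 1 lower of 6 turnover genes. Of these, 5 of the 7 co-receptor calls, 3 of the 4 Dishevelled and kinase calls and 1 of the 8 polarity calls were lost in at least 1 alternative, Dvl3 in 10 of 20 (adjusted p up to 0.14).

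**Figure D4:**
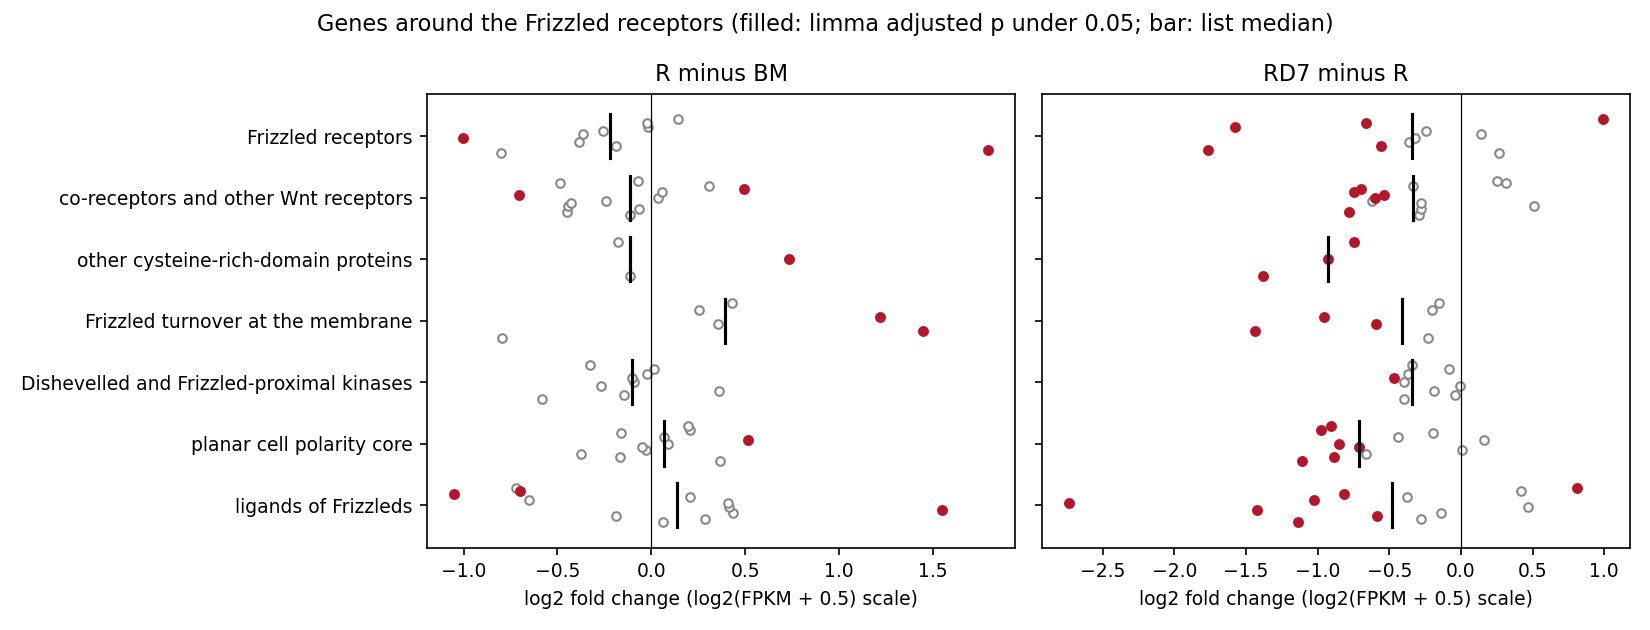
Log2 fold change (horizontal axis, log2(FPKM + 0.5) scale) of each tested gene, for R minus BM and RD7 minus R. The genes are the Frizzled family and 6 lists of genes that act with it or share its cysteine-rich domain. Filled red points passed limma's adjusted p of 0.05 and the black bar is the list median, which for RD7 minus R lies at -0.34 for the Frizzleds and -0.71 for the polarity genes.

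The genes whose pattern over the 9 libraries was most like that of a called Frizzled were found by Pearson's r of log2(FPKM + 0.5), among 12882 genes with a mean FPKM of at least 1 (12883 for Fzd9). The libraries share their groups, so these values describe the pattern only. Fzd7 was followed most closely by Ahr, the aryl hydrocarbon receptor (r = 0.997), Glis3 (0.996) and Ercc6l (0.995). Ahr averaged 44.7 ± 12.1 FPKM in BM, 41.8 ± 6.32 in R and 14.0 ± 4.69 in RD7. Fzd10 was followed by Aff3 (0.996), Sox7 (0.970) and Tmprss11g (0.967), with Sox7 at 11.1 ± 0.879, 43.3 ± 2.56 and 9.93 ± 1.61 FPKM. Fzd4 was most like Atp10a (0.993), Akap12 (0.987) and Far1 (0.984). Fzd9 was most like 4933439K11Rik (0.985), Pigh (0.983) and Oasl2 (0.980). For Fzd2 these were Fam171a2, Phip and St3gal3 (0.975 to 0.985), for Fzd3 Ulbp1, Armcx3 and Pdp1 (0.962 to 0.978), and for Fzd8 Tfe3, Polk and Tnpo3 (0.988 to 0.993).

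The kit did not mark the strand of a transcript, so reads of overlapping genes on opposite strands cannot be told apart. Fzd5 shares 1233 bases with the transcript Gm38058, or 17.8% of its exon length, and Fzd6 shares 152 bases with Gm26704, or 3.16%. Neither Fzd5 nor Fzd6 was called in any comparison. No other Frizzled shares exon sequence with a gene on either strand in GENCODE M21.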

How the data were processed

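Polyadenylated RNA of 9 libraries (3 per medium) had been amplified as cDNA with a SMART-Seq kit and carried no molecular identifiers. The authors deposited FPKM for 49585 genes per library, per the file headers. CASAVA 1.9, STAR 2.6.1a, featureCounts, edgeR 3.24.1 and GRCm38 are named, per the submitters' processing notes, without their roles. The annotation release, strand setting and filters are not given in the sources used here. Symbols were found by gene identifier in GENCODE M21 for 99.5% of genes.

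Reads were read back from FPKM, gene length and library total. They were whole within 0.01 of a read for 22971 of 26813 genes above 0 with GENCODE M21 exon lengths, 3841 lengths were fitted and 1 gene was not read back. Reads served for depth, the filter, and an alternative fit with limma-voom. A count of 0 allows up to 3 reads, which is 0.461 CPM in BM 1 and at most 0.188 in the others, for counting error only.

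The test covered 15873 genes that reached 0.5 CPM in 3 or more libraries. Values of log2(FPKM + 0.5) were fitted by limma 3.58.1 (R 4.3.3) with a mean for each of the 3 groups, 6 residual degrees of freedom, and trend and robust settings. Tests were two-sided, with Benjamini-Hochberg adjustment and a threshold of 0.05. The code was tested on simulated data. Python 3.11.15, pandas 2.3.3, numpy 2.4.6 and matplotlib 3.10.9 were used for tables and plots. In each comparison 20 alternatives were run: other pseudocounts, filters, scalings, fits and blocks, and each library left out in turn.

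The members and gene lists were chosen with earlier results of these data known. All 10 Frizzleds are named. Of the other lists, called members only are named with values, at most 6 per list and comparison by size of change, with Axin2 and Fkbp5 as checks of the labels, neighbours of Frizzled genes, and the 3 genes most like each called Frizzled. The abundant ligands Wnt10a, Wnt4 and Wnt7b were added to that choice from R to RD7, where they were not called. Tmem135, 5930412G12Rik and the ratios of Fzd7 to Fzd1 and Fzd6 were chosen after their values had been seen. Single values of some marker genes are not reported here.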

Additional observations from a re-analysis of the deposited data

How the results depend on the processing

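Of the alternatives for the 10 Frizzled genes, 186 of 200 from BM to R, 187 of 200 from R to RD7 and 191 of 200 from BM to RD7 kept direction and side of the threshold. From BM to R, 2 Frizzleds were lower rather than 1 with median-of-ratios scaling, TMM scaling, limma-voom or the length trend removed, and 1 to 2 when single libraries were left out, as Fzd1 joined Fzd4. From R to RD7, 2 to 4 were lower when single libraries were left out, and 2 without R 2, R 3, RD7 2 or RD7 3, where Fzd2 and Fzd8 lost their calls. Directions turned only for differences that were not called. From BM to R, Fzd7 lay at 0.023 with the length trend removed and at -0.22 to 0.14 without single libraries, and Fzd8 at -0.16 to 0.054. Fzd5 lay at -0.093 to 0.35 from R to RD7, and at 0.035 from BM to RD7 with the length trend removed. Fzd10 from BM to RD7 lay at -0.014 with that trend removed and at -0.14 to 0.19 without single libraries. Leaving out single libraries gave 368 to 2089 genes higher and 557 to 1314 lower from BM to R (696 and 896 with all). The highest counts came without BM 3, where 61.4% of calls were higher against 43.7%. From R to RD7 these were 1401 to 2631 higher and 1710 to 3108 lower, and from BM to RD7 2218 to 4076 and 2616 to 4446. From R to RD7, 43.0% of calls were higher (2121 against 2816 lower), but 54.0% with median-of-ratios scaling (2551 and 2170) and 53.8% with TMM (2536 and 2174). Of 9 correlations between same-numbered libraries, taken on deviations from the group mean, 2 were over 0.1 (-0.52 to 0.27). Between unlike numbers 9 of 18 were over 0.1 (-0.58 to 0.58). Deviations from a mean of 3 libraries are tied to each other, so these values cannot decide whether the numbers pair libraries. A replicate block gave 461 genes higher from BM to R and 1739 from R to RD7. Fzd2 from R to RD7 had an adjusted p of 0.051 with the block. With GENCODE exon lengths, Fzd6 averaged 34.9, 28.7 and 24.5 FPKM in BM, R and RD7, against 40.7, 33.5 and 28.6 as deposited. The other causes were not tested. Depth limits Fzd9, Fzd10 and Fzd5 most, and BM 1 above all.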

Other observations

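Some libraries were the highest or lowest of their medium for most Frizzleds. R 3 was the highest R library for 7 of the 10 members (Fzd1, Fzd2, Fzd4, Fzd6, Fzd7, Fzd8 and Fzd10), and RD7 1 was the highest RD7 library for the same 7. BM 3 was the lowest BM library for 6, which are Fzd1, Fzd4, Fzd6, Fzd7, Fzd8 and Fzd10. With median-of-ratios scaling the summed FPKM of the family averaged 121 in BM, 98.8 in R and 74.5 in RD7, against 122, 102 and 71.7 as deposited. Without Fzd6 the sums averaged 81.7, 68.3 and 43.1.

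Wnt4, a ligand of the β-catenin-independent and dependent branches, went against the decline of Wnt5a and Fzd7. It averaged 24.7 ± 5.04 FPKM in BM, 32.7 ± 3.29 in R and 45.5 ± 6.61 in RD7, and rose from BM to RD7 by 0.88 ± 0.17 (limma adjusted p 0.0034). Lgr4, the most abundant of the 3 R-spondin receptors, fell from 26.3 ± 8.53 FPKM in BM to 12.7 ± 4.01 in RD7 (adjusted p 0.011).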
